A study of Mus musculus with 45 samples.

Results

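The effect of the APPswe/PS1dE9 transgene on the hippocampal transcriptome was examined in mice fed a typical Western diet (TWD), by comparing the 6 APP/PS1 mice (A+Tw/TWD) with the 6 wild-type mice (AwTw/TWD). These 12 mice were taken by their genotype and diet labels from the 45 mice of the series, and all 15897 genes of the deposited table were tested. All 45 mice were females on a C57Bl/6J background, sacrificed at 13 months of age. The A+Tw mice carried, in a single transgene under the mouse prion protein (PrP) promoter, chimeric mouse/human APP with the Swedish mutations and human PS1 lacking exon 9. The AwTw mice were littermates without a transgene, and neither group carried the Tau P301L transgene. From 7 months of age both groups ate TWD, a chow in which fat made up 21% and sucrose 35% and which held 0.15% cholesterol, so every difference below was measured on that diet. For side-by-side values, the 5 A+Tw and 6 AwTw mice on standard rodent chow (STD) and the 6 mice on TWD with both the APPswe/PS1dE9 and the CaMKII-driven Tau P301L transgene (A+T+/TWD) were used.

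In APP/PS1 mice the mutant precursor protein is cut into β-amyloid, which is deposited in extracellular plaques. Microglia, the resident macrophages of the brain, gather at plaques and switch on a set of disease-associated microglia (DAM) genes, the later part of which depends on the lipid-sensing receptor Trem2 and its adaptor Tyrobp. Astrocytes near plaques become reactive and produce more of the filament protein Gfap.

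Values are the authors' variance-stabilized, batch-corrected expression values on a log2-like scale. On it, a difference of 1 is about a doubling for well-expressed genes and more than a doubling for genes with few reads. Differences are limma estimates with batch as a covariate, given ± SE, and "adjusted p" is the Benjamini-Hochberg value over all genes with a threshold of 0.05. Since the deposited values have equal batch means and the groups were split unequally over the batches (4 A+Tw/TWD and 2 AwTw/TWD mice in batch 0, 2 and 4 in batch 1, where the labels do not say what a batch was), the estimates can exceed the plain gap between the group values. Each mouse is a separate animal. The table gives no sequencing depth. Medians over genes lay between 8.10 and 8.26 in the 12 mice, and correlations between pairs of mice lay between 0.904 and 0.986. In bulk tissue, fewer cells of a type and less RNA per cell cannot be told apart.

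The tissue label was checked against 12 hippocampal subfield genes, 30 synaptic genes, 12 general astrocyte genes and 13 oligodendrocyte genes, which were all in the table. The dentate granule cell gene Prox1 ranged from 9.06 to 9.99 in A+Tw/TWD and from 9.03 to 10.01 in AwTw/TWD mice, and the oligodendrocyte gene Opalin from 8.48 to 9.45 and from 8.30 to 9.51. A+Tw/TWD replicate 3 had the lowest mean of the subfield list (8.99, against 9.19 to 9.33 in the other 11 mice) and of the synaptic list (12.29, against 12.43 to 12.79). Without it, 120 genes passed the threshold, against 131 with it. Choroid plexus genes differed widely between mice: the mean of 14 such genes was above 7 in 4 A+Tw/TWD mice and 2 AwTw/TWD mice and at most 6.41 in the other 6 mice. Transthyretin (Ttr), the leading choroid plexus gene, ran from 9.73 to 17.59 in A+Tw/TWD and from 8.85 to 18.08 in AwTw/TWD mice. Leaving out those 6 mice kept 2 A+Tw/TWD mice (replicates 1 and 4), both of batch 0, and AwTw/TWD replicates 1, 2, 4 and 5. In that fit 61 genes passed the threshold, all among the 131. The estimate was higher in A+Tw for all 130 of the genes called higher. With so few mice, choroid plexus tissue and group size cannot be told apart where a call was lost. These 130 genes were picked in a fit that held the same mice, so the shared direction is not an independent result. The part of choroid plexus tissue in the results was not tested beyond these values and those given below.

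Promoter sequences are shown for 5 of the genes with the largest differences, the microglial genes Cst7, Itgax, Clec7a, Trem2 and Ccl3, so that their response can be read beside the letters upstream of their start sites. Each run is the 250 bases before the RefSeq start (GRCm38.p6), 5′ to 3′ on the strand of the gene. Capitals mark matches on either strand to the core GAGGAA bound by PU.1, the myeloid master regulator, and to the AP-1 motif TGANTCA.
Cst7 (chr2:150570165-150570414, plus strand): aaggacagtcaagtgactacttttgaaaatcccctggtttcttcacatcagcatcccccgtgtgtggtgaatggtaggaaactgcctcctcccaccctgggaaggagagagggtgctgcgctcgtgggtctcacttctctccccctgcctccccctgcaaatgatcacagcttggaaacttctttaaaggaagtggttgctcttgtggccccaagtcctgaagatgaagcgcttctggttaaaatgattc
Itgax (chr7:128129300-128129549, plus strand): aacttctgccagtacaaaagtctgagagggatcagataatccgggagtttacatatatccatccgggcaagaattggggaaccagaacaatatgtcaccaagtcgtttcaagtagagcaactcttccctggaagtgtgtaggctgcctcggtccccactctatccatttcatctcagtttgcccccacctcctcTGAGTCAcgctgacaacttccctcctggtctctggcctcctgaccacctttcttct
Clec7a (chr6:129472780-129473029, minus strand): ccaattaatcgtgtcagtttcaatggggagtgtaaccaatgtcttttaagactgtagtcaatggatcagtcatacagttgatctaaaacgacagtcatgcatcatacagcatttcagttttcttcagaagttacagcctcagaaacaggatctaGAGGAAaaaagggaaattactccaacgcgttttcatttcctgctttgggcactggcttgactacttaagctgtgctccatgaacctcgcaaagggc
Trem2 (chr17:48346151-48346400, plus strand): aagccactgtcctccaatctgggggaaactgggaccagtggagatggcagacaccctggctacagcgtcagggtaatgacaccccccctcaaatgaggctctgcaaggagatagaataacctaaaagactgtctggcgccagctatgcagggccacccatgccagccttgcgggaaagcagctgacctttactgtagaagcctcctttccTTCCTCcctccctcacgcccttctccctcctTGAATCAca
Ccl3 (chr11:83649379-83649628, minus strand): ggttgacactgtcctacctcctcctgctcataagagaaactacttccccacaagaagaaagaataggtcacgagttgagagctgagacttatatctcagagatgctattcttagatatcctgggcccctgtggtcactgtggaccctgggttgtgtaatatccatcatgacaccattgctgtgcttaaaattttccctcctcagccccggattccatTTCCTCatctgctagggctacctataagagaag
Clec7a held the PU.1 core at -96 to -91, and Trem2 at -40 to -35 and Ccl3 at -33 to -28 held it on the opposite strand. Itgax held an AP-1 match at -56 to -50 and Trem2 at -9 to -3. The window of Cst7 held neither motif, and none of the 5 held the E-box CACGTG. Of all 27025 promoters of the RefSeq table, 23.1% held the PU.1 core, 6.87% the AP-1 motif and 6.05% the E-box in the same 250 bases. For the 11615 promoters of genes tested here the shares were 22.2%, 4.2% and 8.1%. The matches are thus a description of these windows only.

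The transgene was checked first. App (ENSMUSG00000022892, chr16:84949685-85173766, minus strand), which encodes the amyloid precursor protein, ran from 15.05 to 15.63 with a median of 15.38 in A+Tw/TWD mice and from 14.38 to 14.86 with a median of 14.63 in AwTw/TWD mice. No value overlapped between the groups, and App was higher by 0.79 ± 0.09 (adjusted p = 1.46e-07). Prnp, the prion protein gene, had a lowest, median and highest value of 14.70, 14.83 and 14.99 in A+Tw/TWD and 13.50, 13.91 and 13.98 in AwTw/TWD mice, a difference of 1.08 ± 0.09 (adjusted p = 1.12e-11). Lamr1-ps1 (chr2:131904086-131904959, plus strand), a processed pseudogene that ends 4969 bases upstream of Prnp (chr2:131909928-131938429, plus strand), lay between 5.56 and 6.33 in A+Tw/TWD mice. All 6 AwTw/TWD mice were tied at the lowest value of their batch for Lamr1-ps1, as mice without reads would be, so its difference (adjusted p = 1.12e-11) is given no size. Whether reads of the PrP-driven transgene count toward Prnp or Lamr1-ps1 was not tested. Mapt, the tau gene, differed by -0.07 ± 0.11 (adjusted p = 1.00, interval -0.29 to 0.14), with 12.61 to 13.06 in A+Tw/TWD and 12.82 to 13.05 in AwTw/TWD mice. Of the 14 measured genes of the APP family and its processing enzymes, App alone passed the threshold, and the β-secretase gene Bace1 had an estimate of -0.09 ± 0.10.

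Across the whole table the response was almost entirely upward. Of 15897 genes, 827 had an unadjusted p below 0.05 (5.2%) and 131 passed the threshold (0.824%), of which 130 were higher in A+Tw/TWD mice (0.818%) and 1, Apln, was lower (0.00629%). The 12 values did not overlap between the groups for 106 genes (0.667%), 97 with higher and 9 with lower values in A+Tw/TWD, and 80 of the 131 called genes were among them. The median difference of the genes called higher was 0.83, with a range of 0.44 to 4.15, and 37 exceeded 1. The median over all genes was -0.01, with a higher estimate in A+Tw/TWD for 7329 genes (46.1%) and a lower one for 8568. The estimate was higher in batch 0 and in batch 1, each fitted alone, for all 130 genes called higher, while 58, 24 and 22 of the called genes passed the threshold in batch 0, in batch 1 and in both. The genes were picked with both batches together, so the shared direction is not independent of that choice. In fits that each left out 1 of the 12 mice, 91 genes passed every time and 40 were lost at least once. The plot of all genes shows this lopsided shape.

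**Figure D1:**
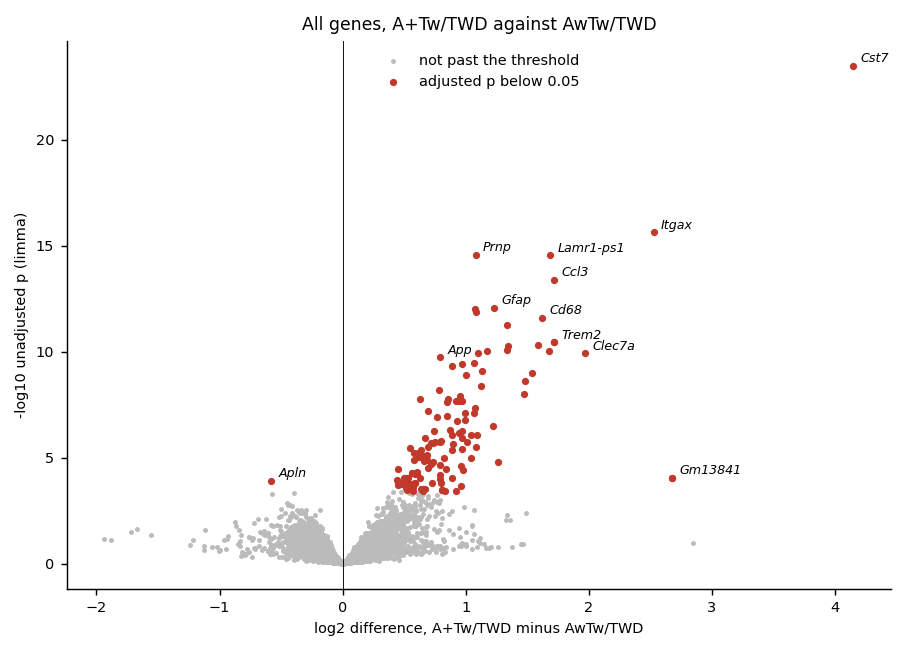
Log2 difference between A+Tw/TWD and AwTw/TWD mice (horizontal axis) against -log10 of the unadjusted limma p (vertical axis) for 15897 genes; red points are the 131 with an adjusted p below 0.05. Of the red points 130 lie right of 0 and only Apln lies left of it, with Cst7 farthest out at 4.15.

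DAM genes led the response. Cst7 (chr2:150570415-150578944, plus strand), which encodes the endolysosomal cysteine protease inhibitor cystatin F, had a lowest, median and highest value of 8.96, 9.16 and 10.07 in A+Tw/TWD mice and of 4.90, 5.34 and 5.76 in AwTw/TWD mice. The lowest APP/PS1 mouse was thus more than 3 units above the highest wild-type mouse, and the estimate was 4.15 ± 0.19 (adjusted p = 5.09e-20). It was 4.16 in batch 0 and 4.03 in batch 1. Itgax, the integrin CD11c, followed with 7.16, 7.66 and 8.13 against 4.52, 5.30 and 5.62, a difference of 2.53 ± 0.19 (adjusted p = 1.86e-12). Clec7a, the β-glucan receptor dectin-1, annotated as a polymorphic pseudogene in this gene set, reached 6.50, 6.97 and 7.32 against 4.59, 5.09 and 5.25 (1.97 ± 0.23, adjusted p = 9.89e-08). For these 3 genes no AwTw/TWD mouse came within 1 unit of any A+Tw/TWD mouse.

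The 20 late DAM genes had a median difference of 0.82, against -0.01 over all genes. Of them 11 rose, against 0.818% of all genes, and none fell. Besides the 3 above and Trem2, these were the chemokine Ccl6 (1.67 ± 0.19), the endosomal glycoprotein Cd68 (1.62 ± 0.16), the inhibitory receptor Lilrb4a (1.26 ± 0.26), Gpnmb (1.04 ± 0.21), the tetraspanin Cd9 (0.99 ± 0.15), the growth factor Igf1 (0.87 ± 0.15) and the cholesterol 25-hydroxylase Ch25h (0.75 ± 0.13). Cd68 ran from 9.65 to 10.11 in A+Tw/TWD and from 7.96 to 8.71 in AwTw/TWD mice, without overlap. Without the mice of high choroid plexus level 7 of the 11 passed, with a list median of 0.88. With the choroid plexus mean as a covariate 11 members passed. Osteopontin (Spp1), also on this list, had an estimate of 0.77 ± 0.34 that did not pass (adjusted p = 0.845), with overlapping values of 7.88 to 8.81 and 6.44 to 8.31. Axl, a receptor for dying cells, stood at 0.02 ± 0.15 with an interval of -0.29 to 0.33. Of the 7 early DAM genes, 4 rose: Tyrobp, the macrophage lysozyme Lyz2 (1.54 ± 0.19), the protease cathepsin D (Ctsd, 1.04 ± 0.18) and B2m (0.80 ± 0.19). Apoe, the main lipoprotein of the brain and the best known member of that list, ran from 15.12 to 15.64 in A+Tw/TWD and from 14.87 to 15.99 in AwTw/TWD mice, an estimate of 0.08 ± 0.17 with an interval of -0.26 to 0.42.

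**Figure D2:**
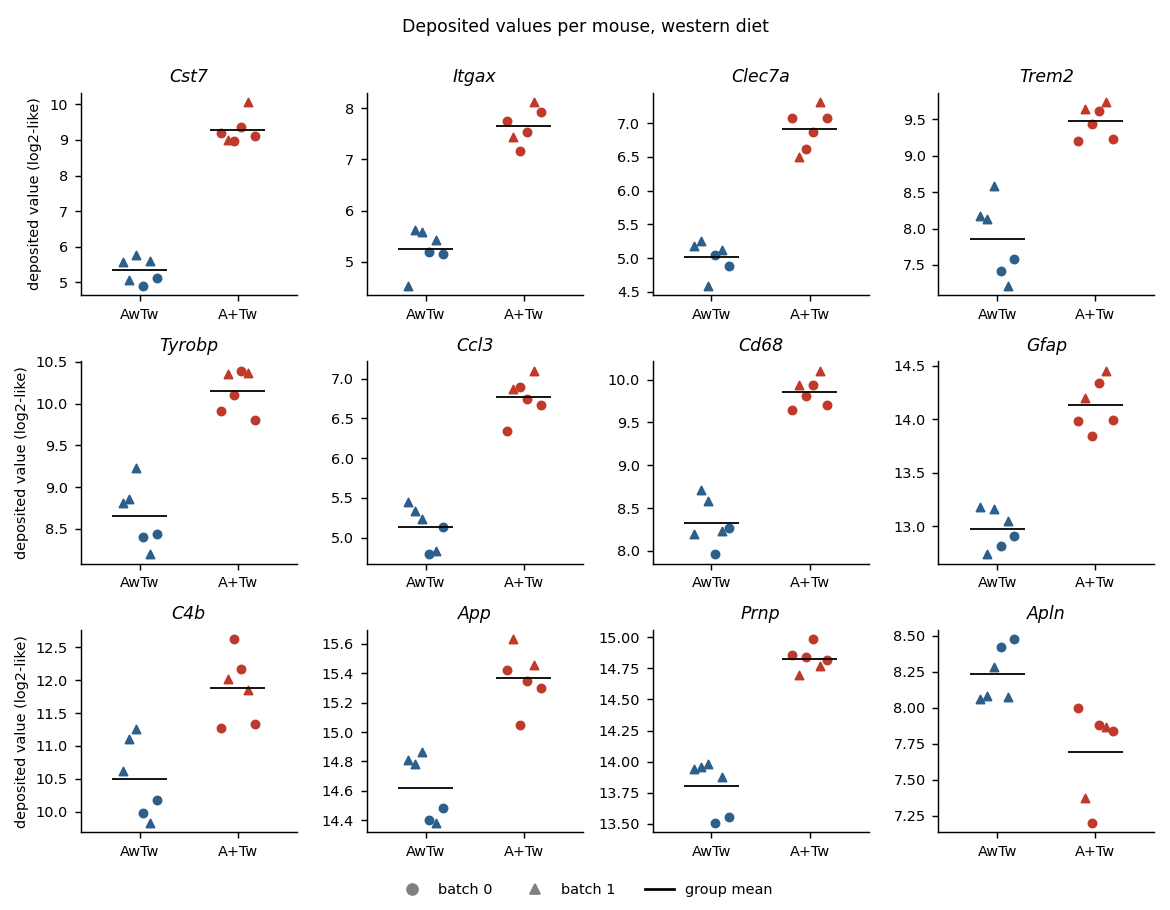
Deposited value (log2-like, vertical axis) of 12 genes in each of the 6 AwTw/TWD (blue) and 6 A+Tw/TWD (red) mice; circles are batch 0, triangles batch 1 and black lines the group means, and each panel has its own axis. In all 12 panels the groups do not overlap, and only in the Apln panel is A+Tw the lower one.

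Receptor and adaptor of the Trem2 pathway rose together. Trem2 (chr17:48346401-48354147, plus strand) had a lowest, median and highest value of 9.20, 9.53 and 9.74 in A+Tw/TWD and of 7.21, 7.86 and 8.58 in AwTw/TWD mice (1.72 ± 0.19, adjusted p = 4.85e-08). A second gene entry, ENSMUSG00000116470, holds the same values as Trem2 in every mouse, so this result counts as 2 of the called genes. Tyrobp (chr7:30413760-30417585, plus strand), the signalling adaptor DAP12, ran 9.80, 10.23 and 10.39 against 8.19, 8.62 and 9.22 (1.59 ± 0.18, adjusted p = 5.86e-08). Downstream, the lipid phosphatase Inpp5d (0.65 ± 0.16, adjusted p = 0.0395) and the exchange factor Vav1 (0.63 ± 0.14, adjusted p = 0.0143) passed the threshold. The other 10 of 14 measured members did not, among them the kinase Syk (0.18) and the phospholipase Plcg2 (0.29), and the list median was 0.34. The main fit called 4 of 14 members, against 0.818% of all genes called higher. Without the mice of high choroid plexus level 2 members passed, with a list median of 0.48, and 4 passed with the choroid plexus covariate. Inpp5d and Vav1 each lost the call in at least 1 fit without a mouse (highest adjusted p 0.219 and 0.0913).

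Genes of homeostatic microglia were also higher, not lower, where they passed. Of 15 members, 6 rose, against 0.818% of all genes, and none fell (list median 0.39). Among the 6 were Fcrls (0.85 ± 0.13), Olfml3 (0.69 ± 0.13), the lectin Siglech (0.68 ± 0.13), the fractalkine receptor Cx3cr1 (0.58 ± 0.11) and the CSF1 receptor Csf1r (0.51 ± 0.12). Csf1r lost its call in at least 1 fit without a mouse (highest adjusted p 0.081). Without the mice of high choroid plexus level 4 members passed, with a list median of 0.60, and 6 passed with the choroid plexus covariate. Fcrls ran from 9.27 to 9.90 in A+Tw/TWD and from 8.72 to 9.04 in AwTw/TWD mice. By contrast, the purinergic receptor P2ry12 and the surface marker Tmem119, both much used to define resting microglia, had estimates of 0.07 ± 0.28 and 0.10 ± 0.16, with intervals of -0.49 to 0.63 and -0.23 to 0.43. P2ry12 ran from 7.10 to 8.61 and from 6.94 to 8.55, so the groups covered nearly the same range. The list mean of A+Tw/TWD replicate 3 was 9.39, level with the highest AwTw/TWD mouse (9.39), while the other 5 A+Tw/TWD mice lay between 9.62 and 9.88.

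Receptors that sense immune complexes and microbial or damage signals rose as well. Over all genes 0.818% rose. Of 5 measured Fc receptor genes, 3 rose: the inhibitory receptor Fcgr2b (1.13 ± 0.14), Fcgr3 (0.97 ± 0.12) and the shared γ chain Fcer1g (0.97 ± 0.14). Of 12 measured Toll-like receptor genes, 5 rose: Ly86 (1.18 ± 0.14), Cd180 (1.07 ± 0.16), Tlr2 (0.99 ± 0.16), the co-receptor Cd14 (0.92 ± 0.13) and Tlr1 (0.81 ± 0.21), while the common adaptor Myd88 had an estimate of -0.19. Tlr1 lost its call in at least 1 fit without a mouse (highest adjusted p 0.146). Among Toll-like receptor genes 3 passed without the mice of high choroid plexus level (list median 0.87) and 5 with the choroid plexus covariate. Ly86, the partner of Cd180 at the cell surface, ran from 8.64 to 9.10 in A+Tw/TWD and from 7.41 to 8.03 in AwTw/TWD mice. Of 19 growth factor and transcription factor genes of microglia, 4 rose, among them the G-CSF receptor Csf3r (0.96 ± 0.13) and the transcription factor Irf8 (0.89 ± 0.11). Spi1, which encodes PU.1, had an estimate of 0.51 ± 0.18 that did not pass (adjusted p = 0.435). Without the mice of high choroid plexus level 2 members of that list passed, and 5 did with the choroid plexus covariate.

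Chemokine and complement genes rose as well. Ccl3, a chemokine of activated microglia, had a lowest, median and highest value of 6.34, 6.80 and 7.10 in A+Tw/TWD against 4.79, 5.19 and 5.45 in AwTw/TWD mice (1.72 ± 0.15, adjusted p = 1.32e-10). Its neighbour Ccl4 rose by 0.93 ± 0.15, where 2 AwTw/TWD mice were tied at the lowest value of their batch. Such ties also held for 2 AwTw/TWD mice in each of Hcar2, Lilrb4a and Tlr1, and for 1 in each of Clec7a, Asb10 and Phf11b. Of 15 measured chemokine and chemokine receptor genes, Ccl3, Ccl6, Ccl4 and Cx3cr1 passed, and the list median was 0.16, or -0.08 among genes above the 25th percentile of mean value. Of 15 complement genes 6 rose, against 0.818% of all genes, and the list median was 0.49. The 6 were C4b (1.47 ± 0.21), the 3 subunits of C1q, C1qa (1.09 ± 0.20), C1qb (0.98 ± 0.21) and C1qc (0.96 ± 0.20), the anaphylatoxin receptor C3ar1 (0.97 ± 0.18) and the integrin subunit Itgb2 (0.83 ± 0.16). Without the mice of high choroid plexus level 3 of these passed, C4b, C3ar1 and Itgb2, and the list median was 0.74. None of the C1q subunits passed in that fit, where C1qa had an estimate of 1.22 (adjusted p = 0.119). With the choroid plexus mean as a covariate 6 members passed, C1qa among them (1.08, adjusted p = 0.00161). C4b ran from 11.27 to 12.62 against 9.83 to 11.26, and its reads can be shared with the near-identical C4a. C3 itself, the hub of the cascade, had an estimate of -0.03 ± 0.29, which leaves an interval of -0.62 to 0.57.

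Of 30 lysosomal genes, 11 rose, against 0.818% of all genes, and none fell (median 0.32). Without the mice of high choroid plexus level 6 passed (median 0.33), and 10 passed with the choroid plexus covariate. The proteases cathepsin Z (Ctsz, 1.09 ± 0.19), cathepsin S (Ctss, 1.08 ± 0.11), cathepsin D (Ctsd) and cathepsin H (Ctsh, 0.72 ± 0.15) rose, as did Laptm5 (0.95 ± 0.14), the glycosidases Gusb (0.78 ± 0.11), Man2b1 (0.58 ± 0.12) and Hexa (0.52 ± 0.12), and progranulin (Grn, 0.68 ± 0.13). Ctss ran from 10.66 to 11.46 in A+Tw/TWD and from 10.01 to 10.41 in AwTw/TWD mice. Hexa lost its call in at least 1 fit without a mouse (highest adjusted p 0.109). Cathepsin B (Ctsb, 0.15) and the membrane protein Lamp1 (0.09) did not pass. Of 18 measured genes of lipid transport and storage, Ch25h alone passed (list median 0.09). It did not pass without the mice of high choroid plexus level (adjusted p = 0.163) but did with the choroid plexus covariate (adjusted p = 0.000996). Of 20 cholesterol synthesis enzymes none passed, also without adjustment, with estimates between -0.22 and 0.19.

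**Figure D3:**
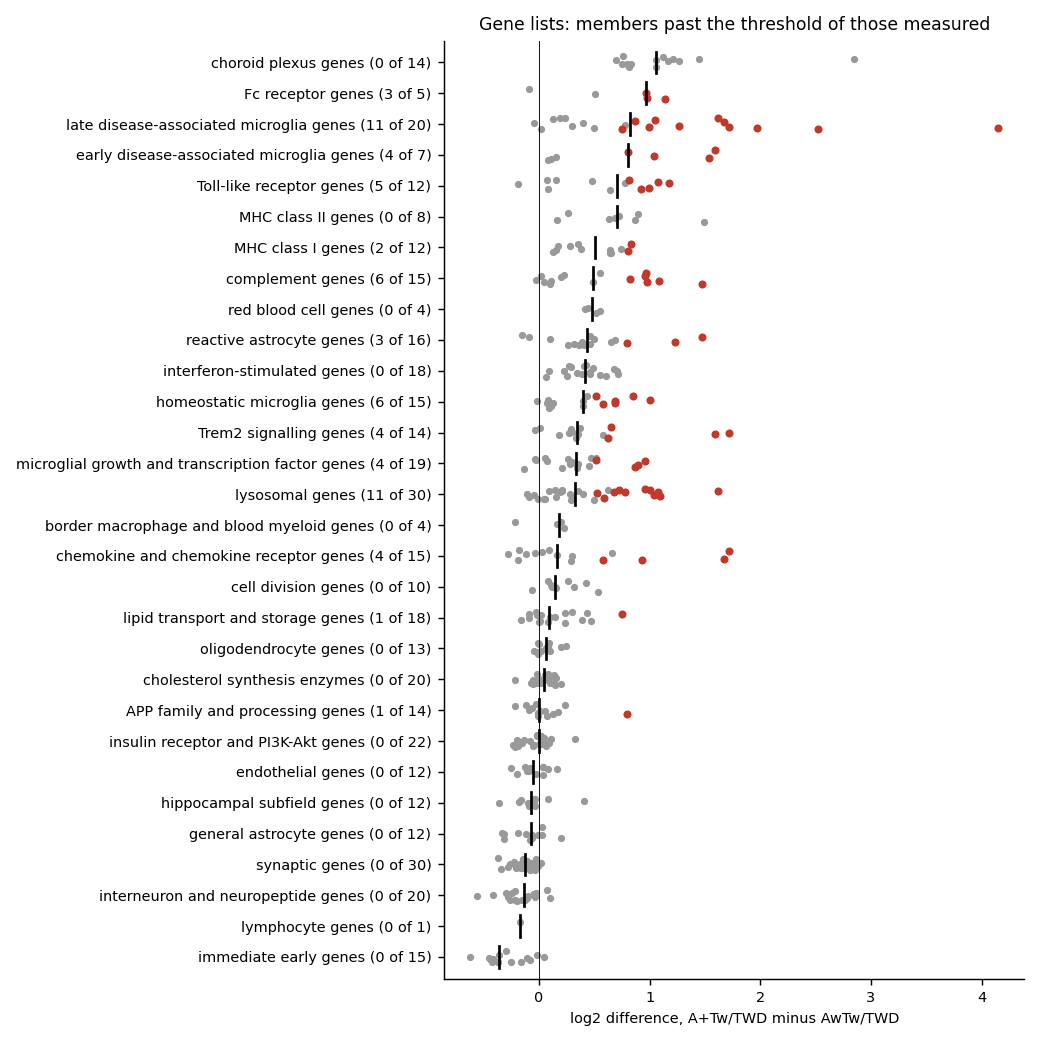
Log2 difference between A+Tw/TWD and AwTw/TWD mice (horizontal axis) for each measured member of 30 gene lists (vertical axis, with the number called higher of those measured); red points passed the adjusted p threshold of 0.05 and black bars are list medians. Red points are a part of the microglial, complement, Fc receptor and lysosomal lists (6 of 15 complement and 11 of 30 lysosomal members). The neuronal lists hold none and have medians left of 0.

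Reactive astrocyte genes held 3 of 16 members that rose, against 0.818% of all genes, with a list median of 0.43. Gfap (chr11:102887336-102900912, minus strand) had a lowest, median and highest value of 13.84, 14.10 and 14.45 in A+Tw/TWD and of 12.74, 12.98 and 13.18 in AwTw/TWD mice (1.23 ± 0.12, adjusted p = 2.17e-09). C4b, made by astrocytes and microglia, and Aspg (0.79 ± 0.18, adjusted p = 0.0116) were the others. Aspg lost its call in at least 1 fit without a mouse (highest adjusted p 0.0545) and without the mice of high choroid plexus level (adjusted p = 0.152). It kept the call with the choroid plexus covariate (adjusted p = 0.0232). Serpina3n, an acute-phase protease inhibitor of reactive astrocytes, had an estimate of 0.46 ± 0.19 (adjusted p = 0.662). None of the 12 general astrocyte genes passed, 1 had an unadjusted p below 0.05 (5.2% over all genes), and their median was -0.07.

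Antigen presentation and interferon genes had higher estimates that mostly did not pass. Of the 12 listed MHC class I genes, all had higher estimates, against 46.1% of all genes. Of these, 2 passed, against 0.818% of all genes that rose: B2m (adjusted p = 0.0229) and H2-D1 (0.83 ± 0.21, adjusted p = 0.0446). Both lost the call in at least 1 fit without a mouse (highest adjusted p 0.117 and 0.214). Without the 6 mice of high choroid plexus level the estimates were 0.87 for B2m and 0.80 for H2-D1, and with the choroid plexus mean as a covariate both were 0.73, and neither gene passed in either fit. H2-D1 ran from 10.32 to 11.34 against 9.03 to 10.43, and reads of MHC class I genes can be shared among close relatives. All 8 measured genes of the MHC class II list had higher estimates (median 0.70) and none passed, while 5 had an unadjusted p below 0.05, against 5.2% of all genes. Outside these lists, the class I gene H2-Q7 (0.96 ± 0.24, adjusted p = 0.0308) and the class II genes H2-Ob and H2-Oa did pass. The invariant chain Cd74, which escorts MHC class II, ran from 8.12 to 11.25 in A+Tw/TWD and from 6.41 to 9.70 in AwTw/TWD mice (1.49 ± 0.49, adjusted p = 0.287). All 18 interferon-stimulated genes also had higher estimates (median 0.41) and none passed, while 7 had an unadjusted p below 0.05, against the same 5.2%. Without the 6 mice the list medians were 0.44 for MHC class I, against 0.51 with them, 0.36 for MHC class II and 0.24 for the interferon-stimulated genes. The list mean of MHC class II was highest in A+Tw/TWD replicate 6 (8.38), which also had the highest choroid plexus mean of its group (9.15).

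**Figure D4:**
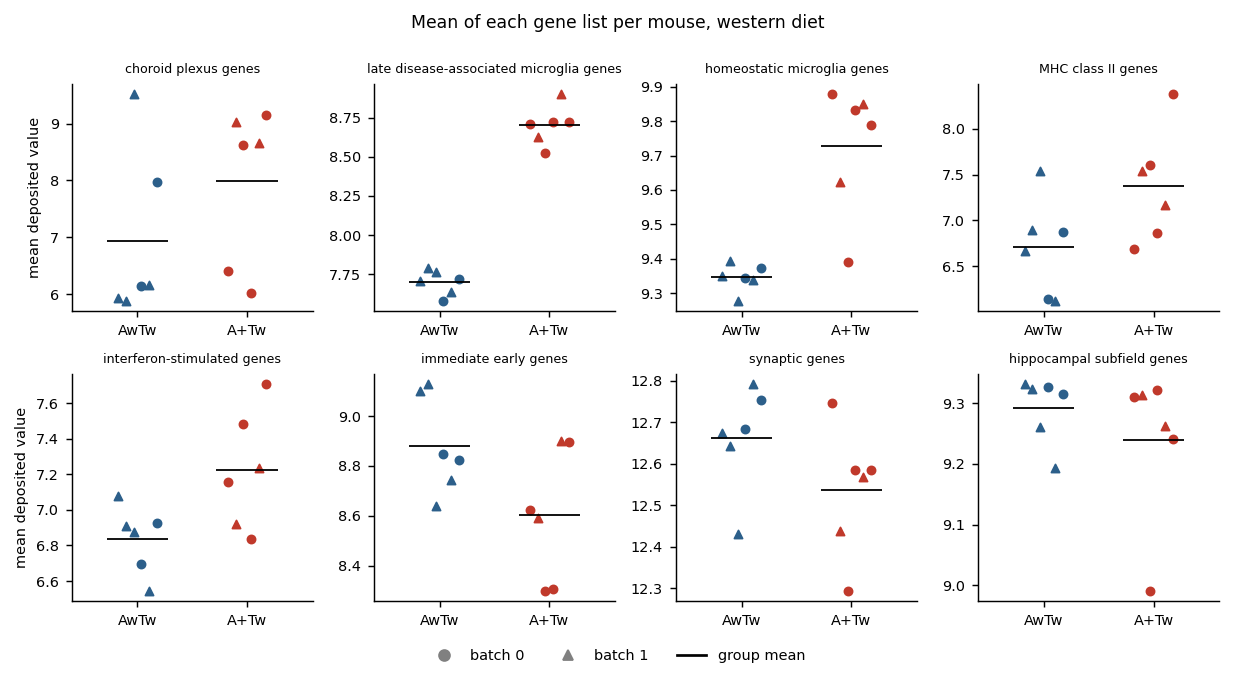
Mean deposited value (vertical axis) of 8 gene lists in each AwTw/TWD (blue) and A+Tw/TWD (red) mouse; circles are batch 0, triangles batch 1, black lines are group means, and each panel has its own axis. The late DAM means do not overlap between the groups, whereas the choroid plexus means spread from 5.88 to 9.51 in AwTw and from 6.01 to 9.15 in A+Tw.

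The listed markers of other cells that the tissue could hold included no called gene in the limma fit, though few of the blood myeloid and lymphocyte genes were in the table. Called surface receptors outside these lists, some of them known from blood-lineage cells, are given below. The choroid plexus list had a higher estimate for all 14 members (median 1.05), against 46.1% of all genes, and none passed or had an unadjusted p below 0.05. Of 12 endothelial genes none passed (median -0.06), nor did any of 13 oligodendrocyte genes (median 0.07) or of the 4 measured red blood cell genes (median 0.48), and again 0 had an unadjusted p below 0.05. Of 11 border macrophage and blood myeloid genes, only Mrc1, Cd163, Lyve1 and F13a1 were in the table (median 0.18, none passed), while Ccr2, S100a8 and S100a9 were not among its genes. Of 11 lymphocyte genes, Cd79a alone was in the table (-0.17 ± 0.21). Cell division genes had no called member among the 10 measured and 2 with an unadjusted p below 0.05 (5.2% over all genes), and Mki67 had an estimate of 0.43 ± 0.18 (adjusted p = 0.711).

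Neuronal genes had small, mostly lower estimates, and none passed in the limma fit. Those with an unadjusted p below 0.05 were 1 of 30 synaptic, 2 of 20 interneuron and neuropeptide, and 3 of 15 immediate early genes, against 5.2% of all genes. Over the whole table, 8568 of 15897 genes had lower estimates. Of 30 synaptic genes, 29 had lower estimates (median -0.13), the lowest being the postsynaptic scaffold Homer1 (-0.37 ± 0.23). Camk2a, the kinase of excitatory neurons, had an estimate of -0.21 ± 0.14 (adjusted p = 1.00), with 15.24 to 15.96 in A+Tw/TWD and 15.79 to 16.13 in AwTw/TWD mice. The synaptic median was -0.08 without A+Tw/TWD replicate 3. Of 20 interneuron and neuropeptide genes, 18 had lower estimates (median -0.14), the lowest being Cort (-0.56 ± 0.22, adjusted p = 0.641). Immediate early genes, which neurons switch on with activity, had lower estimates in 14 of 15 cases (median -0.36). Egr1 ran from 9.98 to 11.15 against 10.59 to 11.76 (-0.62 ± 0.22, adjusted p = 0.435) and Arc from 10.28 to 11.28 against 10.81 to 11.72 (-0.44 ± 0.26). The immediate early median was -0.61 without the mice of high choroid plexus level, and -0.31 and -0.11 in batches 0 and 1 alone. The 22 listed insulin receptor and PI3K-Akt genes had a median of -0.005 with none called and 0 with an unadjusted p below 0.05. Among them Pik3r1, the p85α subunit, had an estimate of -0.02 ± 0.19 with an interval of -0.41 to 0.36. Outside that list, the PI3K subunit gene Pik3r5 (0.44 ± 0.10, adjusted p = 0.0179) and the lipid phosphatase Inpp5d, given above, passed.

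Apln (chrX:48025146-48034853, minus strand), which encodes the peptide hormone apelin, was the only gene that fell. It ran from 7.20 to 8.00 with a median of 7.85 in A+Tw/TWD and from 8.06 to 8.48 with a median of 8.18 in AwTw/TWD mice (-0.58 ± 0.14, adjusted p = 0.0188). The groups did not overlap, but the gap between them was under 0.1. Its call was lost in at least 1 fit without a mouse (highest adjusted p 0.0985) and without the mice of high choroid plexus level, where the estimate was -0.29. With the choroid plexus covariate the estimate was -0.56 and passed (adjusted p = 0.0399).

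Of the 131 called genes, 53 stood on a list and 78 on none. They are grouped here by known role, after their values were seen and with no test of the groups. Surface receptors made up 18 of them, with differences from 0.45 to 1.34. The niacin receptor Hcar2 (1.34 ± 0.15), Cd52 (1.33 ± 0.15), the SLAM family receptor Ly9 (1.10 ± 0.13), the checkpoint receptor Lag3 (0.97 ± 0.17), Cd72 (0.94 ± 0.16), the fatty acid receptor Gpr84 (0.94 ± 0.14) and Cd84 (0.90 ± 0.16) were among them. Further members were Slamf9, Cd37, Cd300c2, Cd48, Havcr2, Lair1, Plxdc2, Plaur, Oscar, Il10ra and Itgb3. Regulators of actin and adhesion made up 12 (0.45 to 0.84): Myo1f, Dock2, Capg, Abi3, Hcls1, Fermt3, Lcp1, Nckap1l, Arhgap45, Arhgap25, Arhgap9 and Arhgap30. Dock2, a Rac activator, had a difference of 0.74 ± 0.12 without overlap.

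Genes of the oxidative burst included the proton channel Hvcn1 (1.07 ± 0.13) and the NADPH oxidase subunit Ncf1 (0.73 ± 0.13). Signalling adaptors and enzymes of blood-lineage cells made up 7 (0.44 to 0.89): Sh3bp2, Ptpn6, Samsn1, Klhl6, Lat2, Adcy7 and Pik3r5. Mpeg1, a pore-forming protein of macrophage endosomes, had a lowest, median and highest value of 9.09, 9.94 and 10.20 against 7.86, 8.32 and 8.89 (1.48 ± 0.19, adjusted p = 1.45e-06). It stood with the endosomal transporters Slc15a3 (1.07 ± 0.16) and Slc11a1 (1.01 ± 0.18) and with Unc93b1 (0.57 ± 0.14), which carries Toll-like receptors to endosomes. Antigen presentation and interferon-linked genes outside the lists were H2-Q7, Phf11b, H2-Ob, H2-Oa, Sp110 and Irf5 (0.52 to 0.96). Secreted or extracellular proteins were Mamdc2, heparanase (Hpse), urokinase (Plau), Rnase4 and Ang (0.60 to 0.79), of which Rnase4 and Ang share a locus.

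The remaining 23 comprised Prnp, Lamr1-ps1, the Trem2 copy and Apln, described above, and 19 more. The lincRNA AU020206 ran from 7.42 to 7.60 in A+Tw/TWD and from 5.82 to 6.68 in AwTw/TWD mice (1.34 ± 0.14, adjusted p = 8.99e-09). Tent5c (1.22 ± 0.20), the apoptosis inhibitor Bcl2a1b (1.13 ± 0.15), which has near-identical copies, and the membrane protease St14 (1.08 ± 0.11) followed. Gm13841 and Gm8210 hold the same values in every mouse. Both passed (adjusted p = 0.0143) with overlapping groups, and since all 6 AwTw/TWD mice and 1 A+Tw/TWD mouse were tied at the lowest value of their batch, the difference is given no size. The rest, between 0.48 and 0.97, were Asb10, Frrs1, Ugt1a7c, Tbxas1, Anxa3, Il4i1, Rubcnl, Dcaf1, Mboat1, Arl11, Lrmp, Sbno2 and Ip6k3.

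To ask whether the genotype difference on TWD departed from that on STD, the difference of the differences was tested for every gene. No gene passed (0.0% of 15897 genes), the smallest adjusted p was 0.919, and 352 genes had an unadjusted p below 0.05, which is 2.21% of the table. On STD, 147 genes passed for A+Tw against AwTw (0.925%). Of the 130 genes called higher on TWD, 129 also had a higher estimate on STD, with a median of 0.81 there against 0.83 on TWD. For Cst7 the estimate was 4.31 ± 0.19 on STD, and the TWD effect minus the STD effect was -0.16 with a 95% interval of -0.71 to 0.38. For Trem2 it was 1.95 ± 0.20 on STD and the difference -0.22 (-0.78 to 0.34), for Tyrobp -0.19 (-0.71 to 0.33), for Cd68 -0.23 (-0.71 to 0.25), for Itgax 0.05 (-0.50 to 0.60) and for Gfap -0.27 (-0.62 to 0.08). A change of the effect with diet was not detectable for these 6 genes within each gene's own interval.

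Of the called genes, 26 did not pass on STD, and 3 of these had an unadjusted interaction p below 0.05, against 2.21% of all genes. Picking genes that pass on TWD but not on STD itself favours such a difference, so the count is not a test. Dcaf1, a substrate receptor of a ubiquitin ligase, had 0.59 ± 0.14 on TWD and -0.19 on STD (difference 0.78, interval 0.36 to 1.19, adjusted p = 0.919). Its estimate on TWD was 0.20 without the mice of high choroid plexus level. Rubcnl (difference 0.47) and the receptor Oscar (0.44) were the others. Outside the called genes, Atp11a (0.41 on TWD, -0.24 on STD, difference 0.65) and Anxa8 (-0.33 and 0.47, difference -0.81) had the smallest interaction p next to Dcaf1, and each had an adjusted p of 0.919.

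The A+T+/TWD mice were set against the same 6 AwTw/TWD mice, so both comparisons share their controls and their likeness is not an independent result. In that comparison 116 genes passed (0.73%), and 92 of the 131 genes called in A+Tw/TWD were among them. The median estimate of the 130 higher genes was 0.74 there. Side by side, Cst7 had 4.15 ± 0.19 in A+Tw and 3.91 ± 0.19 in A+T+, Trem2 1.72 ± 0.19 and 1.47 ± 0.19, Gfap 1.23 ± 0.12 and 1.41 ± 0.12, App 0.79 ± 0.09 and 0.87 ± 0.09, and Apln -0.58 ± 0.14 and -0.44 ± 0.14, the last of which did not pass (adjusted p = 0.186).

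**Figure D5:**
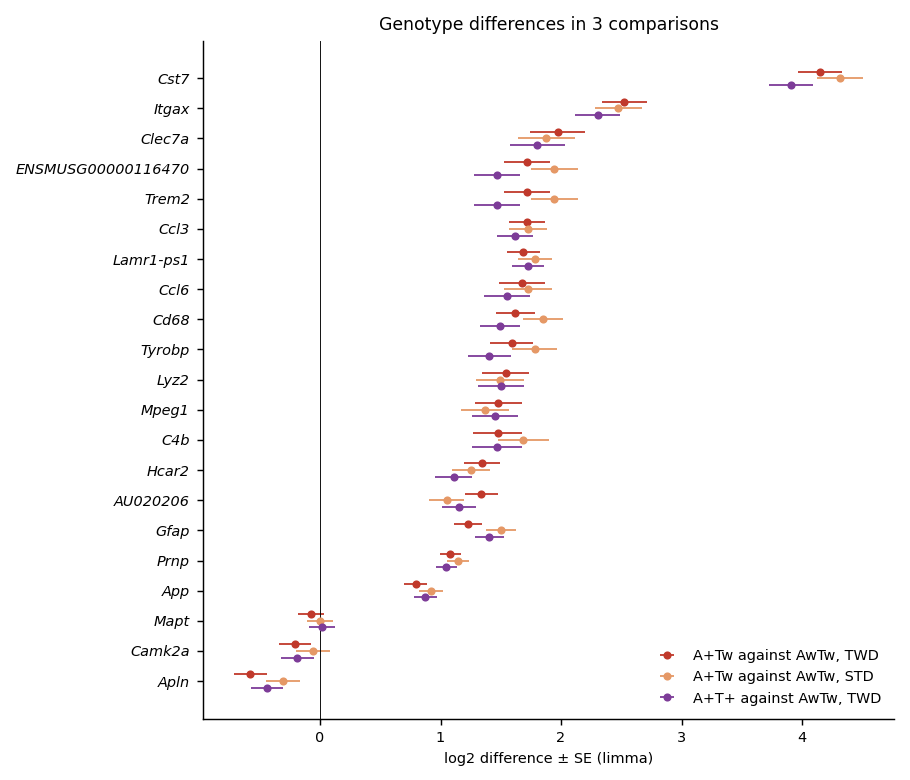
Log2 difference ± SE (horizontal axis) of 21 gene entries in 3 comparisons: A+Tw against AwTw on TWD (red), the same on STD (orange), and A+T+ against AwTw on TWD (purple), the last sharing its AwTw mice with the first. The 3 points of each microglial gene lie close together, for Cst7 between 3.91 and 4.31, while Mapt and Camk2a lie near 0.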

How the data were processed

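Hippocampal polyA RNA of 45 mice was sequenced as single 50 bp reads on 2 lanes. The authors trimmed reads with Trimmomatic 0.38, removed ribosomal and mitochondrial reads with Bowtie2 2.2.3, quantified transcripts with kallisto 0.44.0 (mm10), summed them per gene, kept genes with a mean count above 10, applied the variance-stabilizing transformation of DESeq2 1.22.2 and removed batch with limma 3.38.3. The values deposited by the authors are thus log2-like. Batch means are equal for every gene, so variation that groups shared with batch was partly removed, and the counts and the depth per mouse were not used here. Low values are compressed, so differences of weakly expressed genes are understated.

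Groups and batch came from the sample labels. All 8 groups entered 1 limma 3.58.1 model (R 4.3.3) with batch as a covariate, empirical Bayes with a mean trend and two-sided tests, with Benjamini-Hochberg adjustment across the table and a threshold of 0.05. The authors' own test was run with DESeq2 on counts. The scripts were tested on simulated data. Intervals are 95% intervals of the model. Symbols and coordinates are from GENCODE M21 (GRCm38): 15695 genes had a symbol, 202 had none, 12 symbols belong to more than 1 gene and 160 genes copy another gene's values to 10 decimals.

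The members, gene lists and tests were chosen with earlier results of these data known. Named genes were App, Prnp, Mapt and Camk2a, the 15 largest called differences whose groups do not overlap, called genes that fell (at most 5), up to 4 called members of each list, the 2 members with the smallest p of lists with fewer than 2 called, and the 3 smallest interaction p. Some genes that meet these rules are counted but not reported by name here. Further list members, the genes called outside the lists and Rubcnl and Oscar were named after their values were seen. Promoters are from the RefSeq table (GRCm38.p6), where 96 of the 130 higher genes had one, too few for a share over them. Alternatives were the batch term, each batch alone, the 12 mice alone, the trend, a filter at the 25th percentile, quantile normalization, array weights, the letters of the sample labels, a choroid plexus covariate, copied genes counted once and leaving out each mouse. Means and plots were made in Python 3.11.15 with pandas 2.3.3, numpy 2.4.6 and matplotlib 3.10.9.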

Additional observations from a re-analysis of the deposited data

Results flagged for a closer look

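In 12 of 170 pairs of a named gene and a group of 6 mice (7.06%), the highest or lowest mouse stood apart from the other 5 by more than Dixon's 95% critical value allows, which chance gives in about 1 in 20 groups. A+Tw/TWD replicate 3 gave the lowest value of its group for Csf1r (10.6), Snap25 (14.1) and Camk2a (15.2), and it also had the lowest synaptic and subfield list means. Among A+Tw/TWD mice, replicate 5 was highest for Cst7 (10.07) and lowest for Anxa8 (4.80), replicate 6 was highest for H2-D1 (11.3), replicate 1 was lowest for Opalin (8.48) and replicate 2 was lowest for Cd163 (5.36). Among AwTw/TWD mice, replicate 3, which had the highest choroid plexus mean of the 12 mice (9.51), was highest for Itgb2 (8.50) and Aspg (6.94) and lowest for Irs2 (9.67), and replicate 1 was highest for Akt1 (12.0). The value of AwTw/TWD replicate 3 makes the groups overlap for Itgb2 and Aspg.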

How the results depend on the processing

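The count of 131 genes moved by more than 1.5 times in 5 settings. It was 64 in batch 0 alone and 24 in batch 1 alone, with fewer mice each, and 68 in a fit of the 12 mice alone. With genes above the 25th percentile of mean value only, it was 71. That filter left weakly expressed genes untested, called ones such as Ccl3 and Clec7a among them. Without the 6 mice of high choroid plexus level it was 61, a setting chosen after seeing the data that also has fewer mice. The count was between 104 and 136 when each mouse was left out in turn. In the other settings it lay between 100 (quantile normalization) and 159 (array weights). The interaction count was 0 in the 17 alternatives in which it was fitted: no batch term, batch 1 alone, the mice of the 4 groups alone, the choroid plexus covariate, leaving out each of the 12 mice, and leaving out those of high choroid plexus level. For the 48 named genes that passed, no estimate changed sign in any setting, though these genes were picked with the same mice. Of 1138 repeats, 1021 kept the call and 117 lost it. Losses were most frequent in batch 1 alone (29 genes), batch 0 alone (15) and without the mice of high choroid plexus level (13), followed by the fit of the 12 mice (11). Among list medians, that of the Toll-like receptor genes was 0.08 and that of the chemokine genes -0.08 above the 25th percentile. No paired analysis was possible because the labels carry no replicate numbers that tie mice of the groups to each other. Depth limits are unknown, since the table holds no counts.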
